A study of Capra hircus with 4 samples.

Results

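The 9 genes described here encode the parts of the Hedgehog pathway that receive the signal and carry it to the nucleus: the receptor PTCH1, the transducer SMO, the co-receptors GAS1, BOC and CDON, the GLI inhibitor SUFU and the transcription factors GLI1, GLI2 and GLI3. They were taken by symbol from the 20326 genes of the deposited tables, and all 9 were found. Their GeneIDs in the tables are 102187048 (PTCH1), 102171572 (SMO), 108636574 (GAS1), 102183823 (BOC), 102188923 (CDON), 102181468 (SUFU), 102175836 (GLI1), 102178402 (GLI2) and 102178142 (GLI3). The cells were secondary hair follicle stem cells, which belong to the follicles that make the fine undercoat, cultured after isolation from the dorsal skin of cashmere goats (Capra hircus). Bulk RNA was sequenced from 4 libraries, 2 from early anagen sampled in April and 2 from mid anagen sampled in October, each phase with 1 female and 1 male library. No treatment or genetic change is given for either group. The sources used here do not give age, breed line, the number of animals per library or the time in culture. The phase coincides with the month, so anagen stage and season cannot be told apart.

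In the resting state PTCH1 holds SMO inactive. A Hedgehog ligand bound to PTCH1 together with GAS1, BOC or CDON releases SMO, and SMO acts at the primary cilium to free the GLI proteins from SUFU. GLI2 is mainly an activator, GLI3 is mainly processed to a repressor, and GLI1 is an activator that is itself, like PTCH1, a direct target gene and a common readout of the pathway. In skin the ligand SHH from the follicle epithelium drives follicle growth in anagen, and the cells around and within the follicle respond to it.

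GAS1, GLI2 and GLI3 were the members with the largest differences between the phases, all higher at mid anagen, while PTCH1, SMO, BOC and CDON had overlapping values in the 2 phases. SUFU and GLI1 were higher in both mid libraries by smaller amounts. None of the 8 members that could be tested passed limma's threshold of 0.05 for the adjusted p, with phase as the only term. With the replicate number, which is also the sex, added as a term GAS1 and GLI2 passed, as did 14.3% of all tested genes. Values are the authors' deposited abundances per gene, taken here as normalised for length, and differences are on the log2(value + 1) scale, which understates the change of low genes. A gene was tested if it reached 1 in at least 2 libraries.

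**Figure D1:**
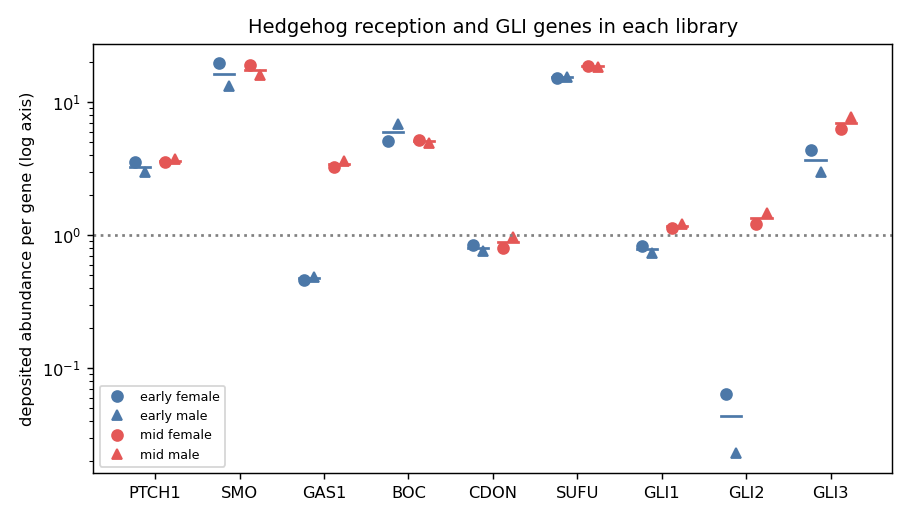
Deposited abundance of each of the 9 genes on a log axis, with circles for female and triangles for male libraries, blue for early and red for mid anagen, and a short line at each mean of 2 libraries. The dotted line marks an abundance of 1, which GAS1, GLI1 and GLI2 cross only in the mid libraries and CDON in none.

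SMO and SUFU were the most abundant members in every library. Together they made up 59.2% to 69.6% of the summed level of the 9 genes. The order of this pair changed from library to library, with SMO first in both female and SUFU first in both male libraries. BOC, GLI3 and PTCH1 formed a middle tier from 2.98 to 7.76, in which PTCH1 was the lowest in all 4 libraries, with GLI3 at 2.99 and PTCH1 at 2.98 in the early male one. BOC was above GLI3 in both early libraries and below it in both mid libraries. GAS1, GLI1, CDON and GLI2 were the lowest 4 in every library. GLI2 was the lowest in both early libraries and CDON the lowest in both mid libraries. The early ranges of GLI1 and CDON overlapped, as did the mid ranges of GAS1 and PTCH1 (3.28 to 3.59 and 3.52 to 3.76).

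PTCH1, the ligand receptor, had abundances of 3.55 and 2.98 in the early female and male libraries and 3.52 and 3.76 at mid anagen. The early female value lay between the mid values, so the groups overlapped. The log2 difference was 0.13 (SE 0.18, 95% interval -0.32 to 0.57, limma adjusted p = 0.675, n = 2 per phase), which does not show that the level was equal. It was 0.03 without the early male and 0.22 without the early female library, 0.02 with the trend of values with genomic span removed and 0.39 after rescaling the libraries to a common total. SMO, the membrane protein that passes the signal on, had early values of 19.6 and 13.2 and mid values of 19.15 and 16.0. Here the female and male libraries of 1 phase were farther apart than the phase means, which were 16.4 ± 4.54 and 17.6 ± 2.23 (SD, n = 2). The log2 difference of SMO was 0.12 (95% interval -0.44 to 0.68, adjusted p = 0.768), and it turned negative without the early male library (-0.15) and without the mid female library (-0.0060). SMO was 4.25 to 5.52 times as abundant as PTCH1 over the 4 libraries. That ratio was higher in the 2 female libraries (5.52 and 5.44) than in the 2 male ones (4.42 and 4.25).

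GAS1, a GPI-anchored co-receptor that binds the ligand with PTCH1, had the largest difference of the 9 genes on the log2(value + 1) scale. As a ratio of linear values, and with a pseudocount of 0.1 (log2 difference 3.35 against 2.63), GLI2 had the larger one. The early values of GAS1 were 0.461 (female) and 0.483 (male), and its mid values were 3.28 and 3.59. Both mid libraries were well above both early ones, and the female and male libraries of a phase lay close together. On the linear scale the mid value was 7.12 times the early value in the females and 7.43 times in the males. The log2 difference was 1.59 (SE 0.19, 95% interval 1.10 to 2.08), and the adjusted p of 0.0551 missed the threshold. GAS1 reached 1 in the mid libraries alone, and a gene kept in this way can have no other direction. Among the 212 tested genes kept in that way the median log2 difference was 0.97, and 86.8% of them had a smaller difference than GAS1. GAS1 passed under 5 of its 11 alternatives, but not without either early library. It passed without limma's intensity trend (adjusted p = 0.0432), as did 0.240% of all tested genes. After rescaling the libraries to a common total it passed (0.0322), as did 5.19% of all tested genes. With the replicate number as a term it passed (0.0118), as did 14.3%. Leaving out 1 library gave log2 differences of 1.54 to 1.64. Over its 11 alternatives the adjusted p ran from 0.0118 to 0.301. With a pseudocount of 0.1 its log2 difference was 2.63 and with 5 it was 0.62.

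BOC, an immunoglobulin superfamily co-receptor, was at 5.11 and 6.86 at early anagen and at 5.18 and 4.97 at mid anagen. The early male library was the highest of the 4, and the other 3 lay within 4.97 to 5.18. Its log2 difference was -0.19 (95% interval -0.66 to 0.28, adjusted p = 0.542). It became 0.10 after rescaling to a common total, which moved the median of all tested genes by 0.31. Without the early male library it was -0.0077 and without the early female library -0.37. CDON, the paralogue of BOC, ran from 0.765 to 0.961 over the 4 libraries, reached 1 in none and was not tested. Its mean level was 0.803 ± 0.0534 at early and 0.882 ± 0.112 at mid anagen (SD, n = 2).

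The make-up of the co-receptors, given as values with no test, was not the same in the 2 phases. BOC held 79.7% and 84.6% of the summed co-receptor level in the early female and male libraries and 55.9% and 52.2% in the mid ones. The share of GAS1 was 7.19% and 5.96% early and 35.4% and 37.7% mid. CDON had 13.1% and 9.44% of the sum early and 8.67% and 10.1% mid, with no separation of the phases. The summed level was 6.41 and 8.10 early and 9.26 and 9.52 mid.

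**Figure D2:**
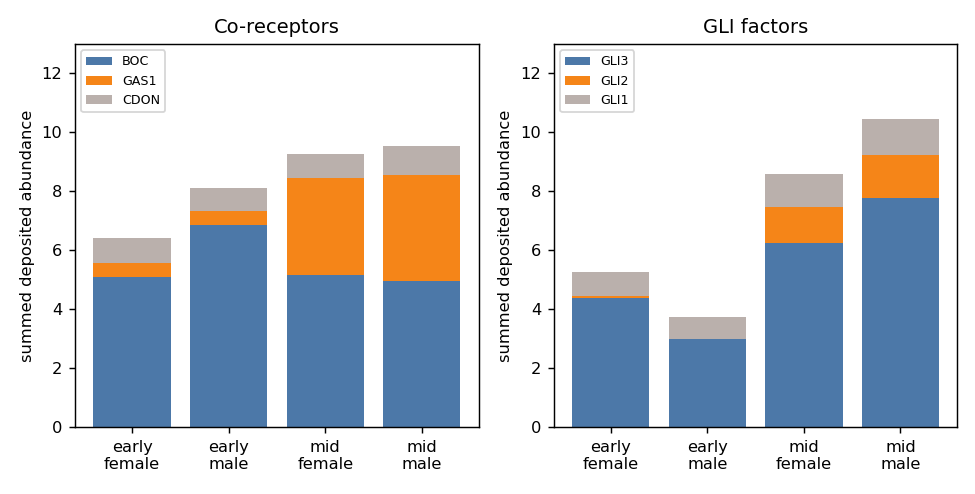
Stacked abundances of the co-receptors (left) and the GLI factors (right) in each of the 4 libraries, on a linear axis from 0. GAS1 and GLI2 are thin layers in the early libraries and make up 35.4% to 37.7% and 14.1% to 14.2% of their stacks in the mid libraries.

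SUFU, which holds GLI proteins in the cytoplasm and represses the pathway, showed little spread within a phase. Its abundance was 15.2 and 15.5 in the early libraries and 18.9 and 18.5 in the mid libraries. The groups did not overlap, and the mid value was 1.24 times the early one in the females and 1.19 times in the males. The log2 difference was 0.26 (SE 0.14, 95% interval -0.08 to 0.60, adjusted p = 0.261). It was 0.09 with the trend of values with genomic span removed and 0.59 after rescaling to a common total, and it did not pass in either case.

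GLI3 was the most abundant of the GLI factors in all libraries. Its female libraries had values of 4.38 early and 6.25 mid, and its male libraries of 2.99 early and 7.76 mid. The male libraries had both the lowest and the highest value, so the mid level was 2.60 times the early one in the males and 1.43 times in the females. GLI3 reached 1 in all libraries, so no direction was set by the filter. Its log2 difference of 0.78 (SE 0.22, 95% interval 0.24 to 1.33, adjusted p = 0.104) exceeded that of 94.6% of the 12205 tested genes that were not kept through 1 phase alone. With the span trend removed it was 0.47.

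GLI2, the main activator of the family, was close to 0 at early anagen, at 0.0640 in the female and 0.0228 in the male library. At mid anagen it was at 1.22 and 1.47, which is 19.1 times the early value in the females and 64.6 times in the males, folds that rest on early values near 0. The log2 difference was 1.17 (SE 0.23, 95% interval 0.60 to 1.74, adjusted p = 0.0755), and GLI2 too reached 1 in the mid libraries alone. It was larger than for 66.5% of the 212 genes kept that way. The value depends on the pseudocount, being 3.35 with 0.1 and 0.33 with 5. GLI2 passed under 2 of its 11 alternatives. The first was rescaling to a common total (adjusted p = 0.0468), where 5.19% of all tested genes passed. The other had the replicate number as a term (0.0257), where 14.3% passed. With the span trend removed its log2 difference was 0.88 (adjusted p = 0.109), and leaving out 1 library it was 1.09 to 1.24.

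GLI1, the target gene and activator, had values of 0.834 and 0.732 early and 1.12 and 1.21 mid. The mid value was 1.35 times the early one in the females and 1.66 times in the males, and the groups did not overlap. The log2 difference was 0.28 (SE 0.21, 95% interval -0.24 to 0.81, adjusted p = 0.413), and it was 0.45 after rescaling and 0.52 with a pseudocount of 0.1. Of the 212 genes kept only through the mid libraries, 3.77% had a smaller difference.

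The sum of the GLI factors was 5.28 and 3.74 in the early libraries and 8.60 and 10.4 in the mid libraries. GLI3 made up 83.0% and 79.8% of it early and 72.7% and 74.3% mid. The GLI2 share was 1.21% and 0.609% early and 14.2% and 14.1% mid, while the GLI1 share was 15.8% and 19.6% early and 13.1% and 11.6% mid. GLI2 was thus below GLI1 in both early libraries and above it in both mid libraries. SUFU was 2.88 and 4.15 times as abundant as the summed GLI factors early and 2.20 and 1.77 times mid.

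**Figure D3:**
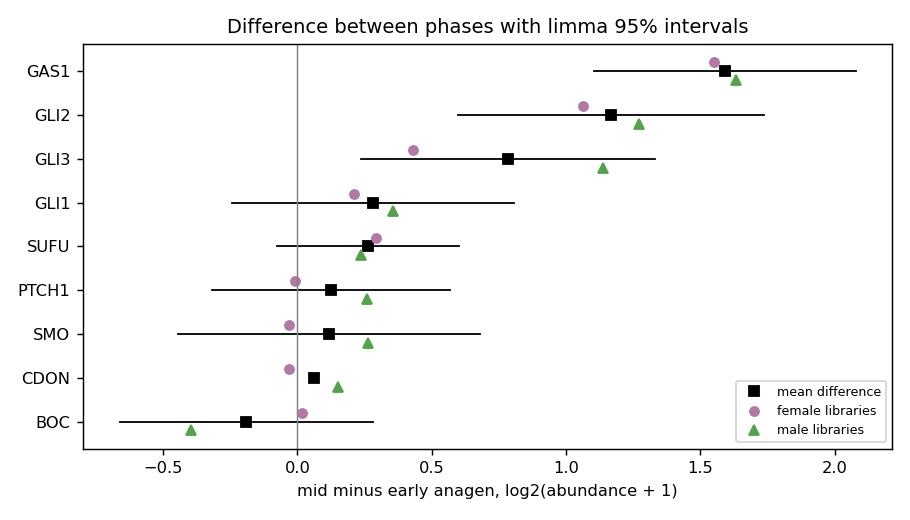
Mid minus early anagen difference of each gene on the log2(abundance + 1) scale: black squares are the mean with limma's 95% interval, circles the female and triangles the male libraries. The intervals of GAS1, GLI2 and GLI3 lie above 0, those of GLI1, SUFU, PTCH1, SMO and BOC include 0, and CDON has no interval because it was not tested.

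Over the 9 genes, 0 of the 8 tested passed in limma, against 0.304% of all 12486 tested genes (38 genes). At an unadjusted p under 0.05 there were 3 members, GAS1, GLI2 and GLI3, against 27.9% of all tested genes. GAS1 and GLI2 reached 1 at mid anagen alone, as did 212 of all tested genes, so their direction was fixed. For 5 of the 9 members both mid libraries were above both early ones, and for 0 they were below. Of the 17322 genes above 0 in any library 30.0% were above and 25.9% below in this sense. The female and male libraries went opposite ways for PTCH1, SMO and BOC, 3 of the 8 tested members, against 23.5% of all tested genes, and for CDON, which was not tested. Of the 5 members higher in both mid libraries, GAS1, GLI2 and GLI1 owed their test to the mid libraries alone. The median log2 difference over all 9 members was 0.26, against 0.02 over the same 17322 genes. With 2 libraries per phase an exact two-sided permutation test of a single gene cannot give a p below 0.333, so the adjusted values rest on the spread that limma shares between genes.

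Ligand genes were at low levels in these libraries. SHH, IHH and DHH are the mammalian ligands, HHAT attaches palmitate to them, DISP1 exports them and SCUBE proteins help to release them. SHH reached at most 0.0380, IHH was listed at 0 in all libraries and DHH ran from 0.516 to 0.930; these were named after their values were seen. Of the 8 genes in this list 3 could be tested and 0 passed, with a median log2 difference of 0.41 over the 8. SHH, IHH and DHH themselves differed by 0.02, 0 and 0.13, and SCUBE3 by -0.03. HHAT, DISP1, SCUBE1 and SCUBE2 differed by 0.68 to 0.79. For SCUBE1, which was not tested, the difference was -0.10 in the females and 1.49 in the males. HHAT was at 3.73 and 3.86 early and 6.66 and 6.73 mid (log2 difference 0.68, SE 0.15, adjusted p = 0.0837). DISP1 had values of 1.85 and 1.38 early and of 3.78 and 2.87 mid, with an adjusted p of 0.115.

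Of 6 other genes that act at the membrane or the base of the cilium, 3 could be tested and 0 passed, with a median of 0.13 over the 6. EVC, a ciliary partner of SMO, had values of 13.7 and 12.1 early and of 16.9 and 19.0 mid, with an adjusted p of 0.139, and EVC2, which forms a complex with it, was at 9.94 and 8.47 early and 11.9 and 11.5 mid. The decoy receptor HHIP, named after its values were seen, stayed at or below 0.00392.

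All 16 regulators of GLI processing could be tested and 0 passed, with a median log2 difference of 0.11. In 7 of them the mid libraries were both higher and in 2 both lower, beside 30.0% and 25.9% of all genes. KIF7, the kinesin that organises GLI and SUFU at the tip of the cilium, was at 19.3 and 14.3 early and 29.8 and 25.7 mid (log2 difference 0.70, SE 0.19, adjusted p = 0.101). NUMB, an adaptor that promotes GLI1 degradation, was at 28.8 and 25.8 early and 35.4 and 37.7 mid.

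Of 16 genes of the primary cilium and of transport within it, 4 were higher and 3 lower in both mid libraries, close to the shares over all genes (30.0% and 25.9%). Their median was 0.03, and 0 passed the threshold. OFD1, a protein of the centriole, had values of 4.81 and 3.88 early and of 8.24 and 6.27 mid, with an adjusted p of 0.129. TTBK2, a kinase that starts cilium assembly, was at 2.31 and 1.83 early and 3.27 and 2.96 mid.

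Of 11 genes known as Hedgehog targets in other settings, 6 could be tested and 0 passed, with a median of 0.01 over the 11. Their directions differed. The cyclin CCND2 was at 87.1 and 82.2 early and 130 and 160 mid (log2 difference 0.76, adjusted p = 0.0839), and SOX9, a stem cell factor, was at 101 and 82.5 early and 150 and 171 mid (log2 difference 0.80, adjusted p = 0.0839). MYCN, FOXM1 and FST, named after their values were seen, were lower in both mid libraries, 3 of the 11 against 25.9% of all genes. MYCN was below the filter and not tested. CCND2, SOX9 and BCL2 were higher in both mid libraries, 3 of the 11 against 30.0% of all genes, with a log2 difference of 0.05 for BCL2. FOXM1, a mitotic transcription factor, was at 23.6 and 26.4 early and 11.1 and 18.0 mid. In limma the tested genes with an unadjusted p under 0.05 were 3 of the ligand list, 1 of the membrane list, 3 of the GLI regulators and 1 of the cilium list, all higher at mid anagen, and among the targets 2 that were higher and 1 that was lower. The share over all tested genes was 27.9%. The counts of the GLI regulators and the cilium list were below it. Those of the ligand, membrane and target lists were above it, with only 3, 3 and 6 genes tested. SCUBE2 of the ligand list reached 1 at mid anagen alone, which fixed its direction.

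**Figure D4:**
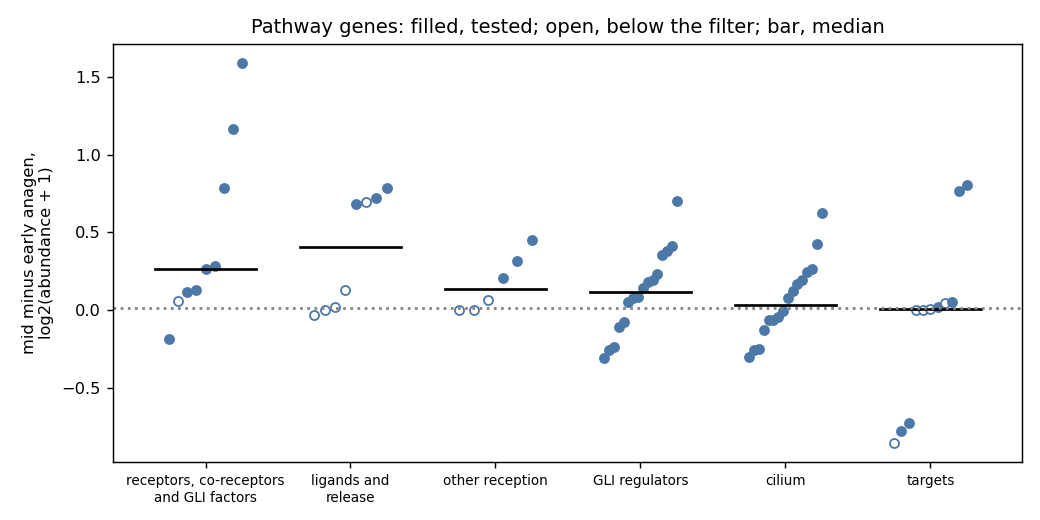
Mid minus early anagen difference of each gene of the 6 Hedgehog lists, with filled points for tested genes, open points for genes below the filter and a bar at the median of each list. The list medians, which include genes below the filter, run from 0.01 for the targets to 0.41 for the ligands and their release genes. The dotted line is the median of the tested genes alone (0.01).

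The labelled cell type was compared with marker genes. The basal keratinocyte keratins KRT14 and KRT5 were at 8956 to 23511 and 7281 to 18092, and the summed level of 8 keratinocyte markers was 40297 and 44974 early and 20380 and 21264 mid. This gap came from KRT5 and KRT14: the other 6 markers summed to 3817 and 3371 early and 3495 and 3074 mid. Among the bulge stem cell markers SOX9 and LHX2 were the most abundant, with LHX2 at 6.94 to 32.1, while CD34 was at 0 in both early libraries and at most 0.136 at mid anagen. All 7 markers found were higher in both mid libraries, against 30.0% of all genes. Of the 6 bulge markers tested 1 passed in limma, LHX2 (adjusted p = 0.0431), against 0.304% of all tested genes. Of the dermal fibroblast and papilla markers 13 of 16 were higher in both mid libraries (30.0% of all genes), while CORIN, SOX2 and CRABP1 overlapped between the phases. None of the 8 that could be tested passed, 8 had an unadjusted p under 0.05 (27.9% of all tested genes), and all 8 reached 1 at mid anagen alone. The sum of the 16 was 1.24 and 3.07 early and 177 and 48.6 mid. COL1A1 and COL1A2, the chains of type I collagen, had the highest means over the 4 libraries, and COL1A1 was at 0.179 and 0.987 early and 58.6 and 19.8 mid. The papilla markers RSPO3 and CRABP1 were at 0 in both early libraries, and CRABP1 was at 0 in the mid female library too. RSPO3 had mid values of 0.388 (female) and 0.0153 (male). CORIN ran from 0.0756 to 0.126 and SOX2 from 0.0380 to 0.166, each with its lowest value in the mid male library.

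GAS1, GLI2 and GLI3 are known to be expressed in skin fibroblasts as well, and in bulk RNA a change in the number of cells of a type and a change in RNA per cell cannot be told apart. Of the mid libraries, which also differ in sex, the female one had the higher fibroblast sum. Its largest parts were the collagens COL1A1, COL1A2 and COL3A1 (58.6, 39.5 and 28.6). GAS1, GLI2, GLI3 and GLI1 were all higher in the mid male library. GAS1 per 100 units of the fibroblast sum was 37.1 and 15.8 early and 1.86 and 7.40 mid, where the early ratios rest on sums of only 1.24 and 3.07. The part of fibroblast RNA in these differences was not tested.

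**Figure D5:**
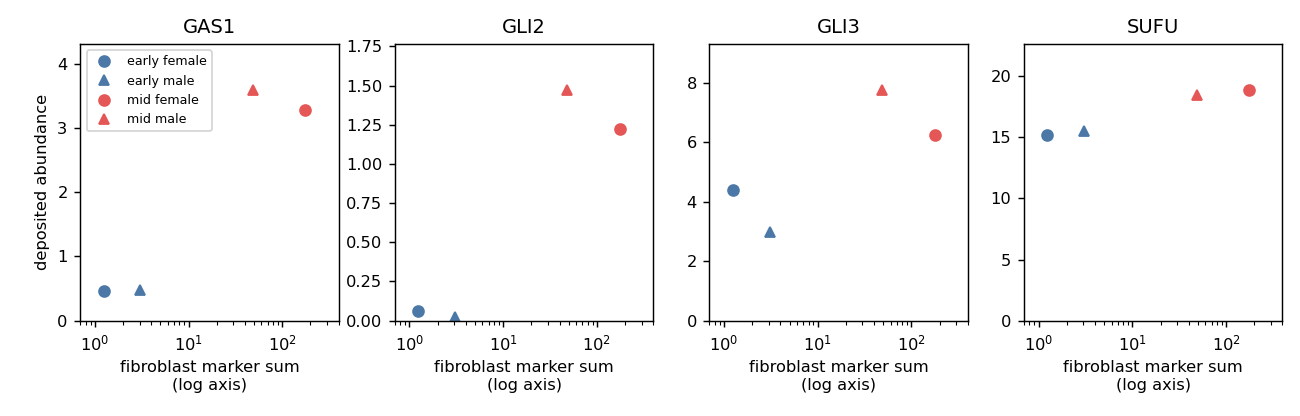
Abundance of GAS1, GLI2, GLI3 and SUFU on linear axes from 0 against the summed abundance of 16 fibroblast and papilla markers on a log axis, 1 point per library. The mid female library (177) lies to the right of the mid male library (48.6), and GAS1, GLI2 and GLI3 are higher in the mid male one.

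Other marker lists were higher at mid anagen in part. Of the 6 endothelial markers ERG, with values of 0.884 and 0.333 early and of 4.19 and 5.24 mid, held most of the mid sum, which was 1.41 and 0.823 early and 4.66 and 6.12 mid. ERG, KDR, TEK and VWF, 4 of the 6, were higher in both mid libraries, against 30.0% of all genes. KDR, TEK and VWF reached at most 0.391, 0.137 and 0.352. PECAM1 was lower in both mid libraries (0.313 and 0.278 early, 0.0664 and 0.0777 mid), as were 25.9% of all genes, and CDH5 was at 0 in all libraries. S100B, ERBB3 and SOX10, 3 of the 5 genes of the nerve and Schwann list, were higher in both mid libraries, with SOX10 at most 0.198. CD14 of the immune list was higher at mid anagen, with PTPRC at 0 throughout. CD68 of the same list ran from 2.40 to 4.41. The smooth muscle sum was 179 and 444 early and 209 and 493 mid, carried by TAGLN, with values of 119 and 396 early and of 165 and 432 mid. Without TAGLN the sum was 59.9 and 48.0 early and 44.1 and 61.4 mid, and ACTA2 ran from 34.0 to 52.4. The melanocyte sum ran from 5.75 to 7.03, with MITF at 3.34 to 4.84 and PMEL at 2.08 to 2.54. The part of these cells in the results was not tested.

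Genes with the most similar pattern were sought as the smallest Euclidean distance of centred log2 values over the 4 libraries, among named genes with a mean within 4-fold. For GAS1 these were ROR2, EPHA4 and SLITRK2 (distances 0.143 to 0.178, 2806 genes compared). The receptor tyrosine kinase ROR2 was at 0.267 and 0.375 early and 2.60 and 3.37 mid. For GLI2 they were ADGRA2, SARDH and KIF26B (0.0748 to 0.104, 1118 genes), and for PTCH1 they were REEP2, CD99L2 and PHF2 (0.0128 to 0.0147, 4384 genes). With 4 libraries such a likeness describes these values only.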

How the data were processed

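What the authors deposited is 1 abundance per gene and library, a signal that is never negative and not whole. The submitters' processing notes name kallisto 0.46.1 and sleuth 0.30.0. The build, the annotation, the step from transcripts to genes and the scaling are not stated in the labels, and the read depth is unknown, so no counting error can be given. Library totals were 1068429 (early female), 1186966 (early male), 933211 (mid female) and 844960 (mid male). Genes at or above 1 numbered 12040 to 12458 per library.

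The test was limma 3.58.1 in R 4.3.3 on log2(value + 1), with an intensity trend and phase as the only term, on the 12486 genes that reached 1 in at least 2 libraries. The Benjamini-Hochberg adjustment ran over all of these genes. The script was checked on simulated data. Only genes more abundant than PTCH1, GAS1, BOC, CDON and the GLI factors were changed there, so the check does not cover the levels of those members. Gene spans for 1 alternative came from the RefSeq table of assembly ARS1.2, in which 20294 gene identifiers were found. The labels call the libraries biological replicates, and nothing says how many animals each holds.

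The members and gene lists were chosen with earlier results of these data known. The named genes are all members, the 2 tested genes of each pathway list with the smallest p and any called, the 2 most abundant of each marker list and 3 genes of like pattern for PTCH1, GAS1 and GLI2. Other genes, among them markers at or near 0, were named after their values were seen. KRT15 and LYZ were not found by symbol. Alternatives were other filters and pseudocounts, rescaling, removing the span trend, a replicate block, no intensity trend and leaving out each library.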

Additional observations from a re-analysis of the deposited data

Results flagged for a closer look

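For 4 of the 9 genes the female and the male libraries moved in opposite directions between the phases. Of these, 3 were among the 8 tested members, and among all tested genes 23.5% did so. With 1 library per sex and phase the difference between the sexes was not tested. PTCH1 differed by -0.0078 in the females and 0.26 in the males on the log2 scale, a gap of 0.27 (male minus female). For SMO the values were -0.03 and 0.26, a gap of 0.29. For BOC they were 0.02 and -0.40, a gap of -0.41, and for CDON -0.03 and 0.15, a gap of 0.18.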

How the results depend on the processing

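Of all tested genes limma called 38, of which 73.7% were higher at mid anagen. The count was 0 with no filter (3843 genes at an unadjusted p under 0.05), 18 with a pseudocount of 0.1, 648 after rescaling to a common total (87.2% higher) and 1782 with the replicate block. Leaving out 1 library at a time gave 0 to 733. It was 0 without either early library (2897 genes at an unadjusted p under 0.05 without the female one and 1445 without the male one), 733 without the mid female and 370 without the mid male library. The lone library of a phase is then assumed to vary like the other phase. Of the members 0 were called as deposited, 2 (GAS1 and GLI2) after rescaling and 2 (the same genes) with the replicate block, 1 (GAS1) without the intensity trend, and 0 to 1 (GAS1) leaving out 1 library, being 1 without either mid library. With the block the adjusted p was 0.0118 for GAS1 and 0.0257 for GLI2. The replicate number is also the sex. Nothing says that it pairs animals, although the female minus male differences of the 2 phases correlated at 0.29 across genes. PTCH1, GLI1, GLI3 and SUFU kept their direction and stayed short of the threshold in every alternative run for them. GAS1 and GLI2 kept their direction in all 11 run for them. SMO ranged from -0.15 to 0.39 leaving out 1 library and reversed without the early male (-0.15) and the mid female library (-0.0060), and BOC after rescaling (0.10), where it lay 0.22 below the shifted median of all genes. The cause was not tested. Read depth is unknown, so the precision of the lowest values, GLI2 and GAS1 at early anagen above all, cannot be stated.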
